A study of Homo sapiens with 9 samples.

Results

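The aryl hydrocarbon receptor genes described here are 7 of the 58676 genes in the count table: the receptor AHR, its partners ARNT and ARNT2, the target enzymes CYP1A1 and CYP1B1, and the feedback genes AHRR and TIPARP. They were picked by gene name, and the set was put together because CYP1A1 moved in opposite directions with the 2 compounds of the study. The level of CYP1A1 in all 3 groups is therefore a description with no test. All 7 genes were found once by name and all 7 passed the filter on low counts. RNA was sequenced from HaCaT cells, a spontaneously immortalised human keratinocyte line, in 9 libraries, 3 per group. One group had 1% DMSO, the solvent control. Another had 250 nM CDDO-Me, a triterpenoid that reacts with cysteines and activates the antioxidant transcription factor NRF2. The last had 10 µM PRL-295, known here by its code name only. All cultures were taken at 14 h in DMEM medium. DMSO is listed for the control group only, and the sources used here do not say if the compound cultures held it. Nor do they say if a group's libraries were grown separately. The p-values thus measure the spread between these libraries, which may be technical.

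The aryl hydrocarbon receptor is a bHLH-PAS transcription factor that waits in the cytosol bound to HSP90. On binding a flat aromatic ligand it moves to the nucleus, pairs with ARNT and binds response elements with the core letters GCGTG. CYP1A1, a cytochrome P450 that oxidises many such ligands, is the best-known target and a common readout of receptor activity in skin, where the receptor also bears on barrier formation. AHRR and TIPARP are themselves targets and restrain the receptor: AHRR competes for ARNT, and TIPARP attaches ADP-ribose to the receptor.

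The core letters were searched in RefSeq promoter windows (build GRCh38.p14, 250 bases before to 50 bases after a start), on both strands. Windows were found for 5 of the 7 genes, 8 windows in all, and for neither CYP1B1 nor ARNT2. GCGTG stood in at least 1 window of CYP1A1, TIPARP, AHRR and AHR. Of all 35116 windows 36.5% held it, and of all 27305 genes with a window 40.6% held it in at least 1, so a match is common. The sites of the target and feedback genes nearest each start are shown because the results below turn on these genes, with the core in capitals (CACGC is the same core on the other strand).
CYP1A1, chr15:74725569-74725598, minus strand: tccagggaaggagGCGTGgccacacgtaca
TIPARP, chr3:156674435-156674464, plus strand: tcgaacgaacgcgCACGCgcgcgcaggggg
AHRR, chr5:321671-321700, plus strand: gggcgggcggctcGCGTGccggggtggggc
The cores start at -57, -142 and -30 from the RefSeq start, in that order. In GENCODE release 29 the CYP1A1 and TIPARP stretches lie in untranslated exons and the AHRR stretch lies in an intron. The longer form TNGCGTG, which contains the core, was found in the windows of AHRR only among the members. It stood in 5.51% of all windows and for 6.69% of all genes. The letters TGACNNNGC, the core bound by NRF2 with a small MAF protein, were found in the ARNT window only among the members. They stood in 13.3% of all windows and for 16.1% of all genes. The cluster of response elements that is best known for CYP1A1 lies farther upstream than this window reaches.

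Libraries held 23383800 to 32942156 counted reads. CDDO-Me 1 stood apart, with 14543 genes detected against 17821 to 23271 in the others. Over genes averaging 1 CPM or more, log2 levels relative to the 9-library average correlated with GC content, at 0.321 to 0.373 in DMSO, -0.651 to 0.00529 in CDDO-Me and -0.476 to 0.316 in PRL-295. Changes are from an edgeR quasi-likelihood fit of all 9 libraries, with Benjamini-Hochberg adjustment over 16239 tested genes and a threshold of 0.05. Fold changes are on the log2 scale of that fit, and levels are in CPM (a gene's count scaled to the counted reads of its library). All 12 keratinocyte markers listed had a mean of at least 1 FPKM in each group. Their summed level was 5517 to 6133 FPKM in DMSO, 7237 to 8386 in CDDO-Me and 4859 to 5160 in PRL-295. With CDDO-Me 9 of the 12 rose by the edgeR test, where 4.65% of all tested genes did. Between the compounds 8 of 12 were lower with PRL-295, where 0.684% of all tested genes were. The part of this difference in the results below was not tested. Markers of fibroblasts summed to 0.707 to 1.33 FPKM over the 9 libraries, with COL3A1, LUM and DCN at 0. Markers of melanocytes, immune cells and endothelial cells summed to at most 1.12, 0.235 and 0.240 FPKM in any library, with TYR and PECAM1 at 0.

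CYP1A1 (ENSG00000140465; hg38 chromosome 15, 74719542 to 74725610, minus strand) was lowest with CDDO-Me and highest with PRL-295. The DMSO libraries held 15.02, 14.7 and 12.4 CPM. With CDDO-Me the values were 3.89, 4.46 and 5.73 CPM, and with PRL-295 they were 47.8, 59.1 and 41.4 CPM. No library of any group reached the range of another group, and the largest value with CDDO-Me was below the smallest with DMSO. The group means were 14.0 ± 1.41, 4.69 ± 0.943 and 49.4 ± 8.97 CPM (SD, n = 3), so the level was 2.99-fold lower than DMSO with CDDO-Me and 3.52-fold higher with PRL-295. These are descriptions, since CYP1A1 was chosen for this pattern. In bulk RNA, more RNA per cell and more cells carrying it cannot be told apart.

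The fitted log2 fold changes of CYP1A1 were -1.59 for CDDO-Me against DMSO, 1.85 for PRL-295 against DMSO and 3.43 for PRL-295 against CDDO-Me. Among the 16239 tested genes this was the 207th highest value with PRL-295, the 426th lowest with CDDO-Me and the 22nd highest for PRL-295 against CDDO-Me. The doses of the compounds differ, so the last comparison is one of these cultures and not of matched doses. With any single library left out, the values stayed between -1.75 and -1.47 with CDDO-Me and between 1.69 and 2.00 with PRL-295. Corrected for GC content and gene length, CYP1A1 stood at 11.3 to 14.1 CPM in DMSO, 4.38 to 5.88 in CDDO-Me and 41.2 to 55.6 in PRL-295, again with no overlap. CYP1A1 rests on 124 to 134 reads per library with CDDO-Me, and the exact 95% Poisson interval of the lowest count, 124, runs from 103 to 148. That interval, like the others here, covers counting error only. CYP1A2, its neighbour and close relative on chromosome 15 and a liver-type enzyme, had 1 read in DMSO 3 and 0 in the other 8 libraries. The limit that a count of 0 allows, 3 reads, corresponds to 0.0911 to 0.128 CPM in these libraries.

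**Figure D1:**
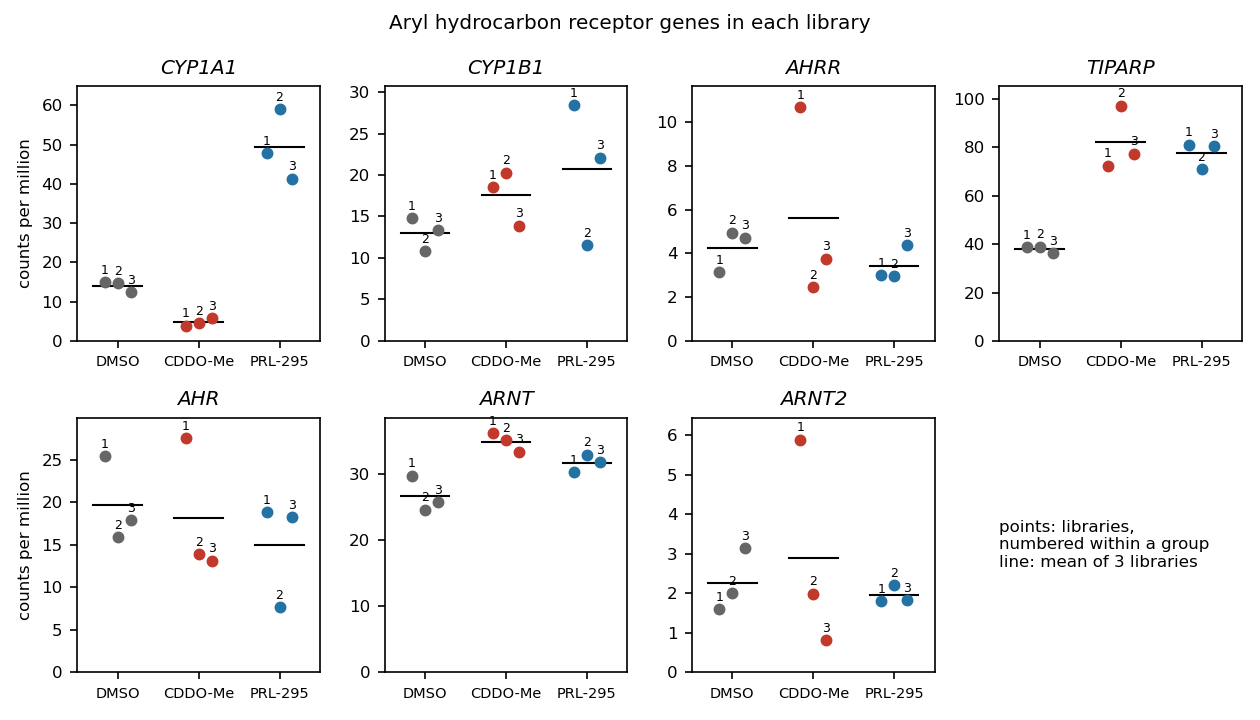
CPM of each gene (vertical axes, linear from 0) in the 9 libraries, grouped by treatment on the horizontal axis; numbers name the library within its group and lines are means of 3. CYP1A1 sits at 12.4 to 15.02 with DMSO, 3.89 to 5.73 with CDDO-Me and 41.4 to 59.1 with PRL-295, while TIPARP is higher with both compounds, and AHRR and ARNT2 are highest in CDDO-Me 1.

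TIPARP, the ADP-ribosyltransferase that restrains the receptor (ENSG00000163659; chromosome 3, 156673235 to 156706770, plus strand), was higher with both compounds. Its DMSO values were 38.7, 39.0 and 36.3 CPM. With CDDO-Me it was 72.5, 97.2 and 77.3 CPM, and with PRL-295 it was 81.0, 70.9 and 80.5 CPM. All 6 compound libraries lay above all 3 DMSO libraries, and the compound groups overlapped each other. TIPARP rose 2.16-fold with CDDO-Me (log2 fold change 1.11, 95% interval 0.81 to 1.41, edgeR adjusted p = 0.000904). With PRL-295 it rose 2.08-fold (log2 1.053, interval 0.76 to 1.35, edgeR adjusted p = 0.00483).

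TIPARP was the 1 of 6 members other than CYP1A1 that passed the edgeR test for CDDO-Me against DMSO, where 9.22% of all tested genes passed (4.65% higher and 4.57% lower). It was likewise the 1 of 6 for PRL-295 against DMSO, where 0.684% did (0.462% higher and 0.222% lower). The background count moved with the libraries used, from 1497 genes to between 400 (without DMSO 2) and 2803 (without CDDO-Me 1) for CDDO-Me, and from 111 to between 33 (without PRL-295 3) and 589 (without CDDO-Me 1) for PRL-295. For PRL-295 against CDDO-Me none of the 6 passed, where 1.59% of all tested genes did. None of the 6 had an unadjusted p under 0.05 there, and DESeq2 and limma called none. The direct TIPARP difference was -0.06 on the log2 scale with a 95% interval of -0.35 to 0.24, or 0.785 to 1.18 times the CDDO-Me level, and 0.12 without CDDO-Me 2. The 2 comparisons against DMSO share its libraries.

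The GC content of the longest TIPARP transcript is 42.8%, and genes of low GC content read higher in the compound libraries with negative GC correlations (CDDO-Me 2 and 3, PRL-295 1 and 3). Genes called higher with CDDO-Me had a median GC content of 42.4%, against 49.2% of all tested genes. With each library corrected for GC content and gene length, the TIPARP log2 fold change was 0.84 with CDDO-Me and 0.83 with PRL-295. The corrected levels were 39.1 to 44.1 CPM in DMSO, 72.5 to 78.1 in CDDO-Me and 72.0 to 77.6 in PRL-295, again with no overlap between DMSO and either compound. TIPARP passed the threshold under all 20 alternatives in both comparisons, with a highest adjusted p of 0.00800 for CDDO-Me and 0.0412 for PRL-295. TIPARP-AS1, an antisense gene that overlaps it, had at most 25 reads in a library. Whether counting used strand is not given in the sources used here. It is thus unknown if reads in the 1144 bases where this pair overlaps could be told apart.

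**Figure D2:**
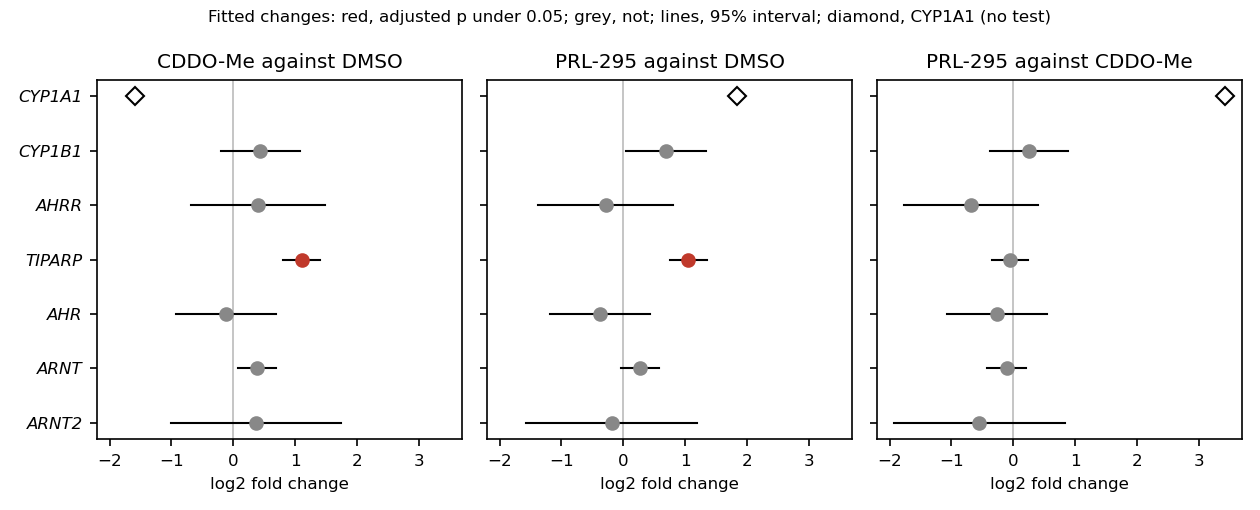
Log2 fold changes of the 7 genes (horizontal axes) in the 3 comparisons from the edgeR fit of 9 libraries; lines are 95% intervals, red marks an adjusted p under 0.05, and the open diamond is CYP1A1, which has no test. TIPARP is red at 1.11 and 1.053 against DMSO and stands at -0.06, not red, between the compounds, and the intervals of AHRR, AHR and ARNT2 include 0 in all 3 comparisons.

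CYP1B1, another P450 enzyme of the receptor's target set that also oxidises estradiol (ENSG00000138061; chromosome 2, 38066973 to 38109902, minus strand), did not pass in any comparison. The DMSO libraries had 14.8, 10.8 and 13.4 CPM, the CDDO-Me libraries 18.6, 20.3 and 13.9 CPM and the PRL-295 libraries 28.4, 11.52 and 22.1 CPM. In each compound group 2 of 3 libraries lay above all DMSO libraries, and CDDO-Me 3 and PRL-295 2 lay within the DMSO range. The log2 fold change was 0.44 with CDDO-Me (95% interval -0.20 to 1.08, edgeR adjusted p = 0.377). With PRL-295 it was 0.69 (interval 0.05 to 1.33, unadjusted p = 0.0366, edgeR adjusted p = 0.348). The PRL-295 value was 0.41 without PRL-295 1 and 0.98 without PRL-295 2 (edgeR adjusted p = 0.816 and 0.128), and the CDDO-Me value was 0.23 with the GC and length correction. PRL-295 2, the lowest of its group, was also the PRL-295 library whose deviation rose most with GC content (0.316), and CYP1B1 has a GC content of 44.1%. After the GC and length correction the PRL-295 libraries stood at 26.2, 12.1 and 21.5 CPM. Between the compounds the log2 difference was 0.26 (interval -0.38 to 0.89, edgeR adjusted p = 0.706), and -0.023 without PRL-295 1. CYP1B1 overlaps RMDN2 and CYP1B1-AS1 on the other strand, which had at most 45 and 17 reads in a library. The CYP1A1 to CYP1B1 ratio of FPKM was 1.63 to 2.37 in DMSO, 0.367 to 0.722 in CDDO-Me and 2.95 to 8.98 in PRL-295.

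AHRR, the repressor that competes with the receptor for ARNT (ENSG00000063438; chromosome 5, 304176 to 438291, plus strand), was low throughout. It had 3.14, 4.95 and 4.73 CPM with DMSO. The CDDO-Me libraries had 10.7, 2.47 and 3.76 CPM and the PRL-295 libraries 3.00, 2.95 and 4.38 CPM. CDDO-Me 1 alone was above the DMSO range, and CDDO-Me 2 was below it. The log2 fold change was 0.40 with CDDO-Me (interval -0.68 to 1.48, edgeR adjusted p = 0.661) and turned to -0.47 without CDDO-Me 1. With PRL-295 it was -0.29 (interval -1.37 to 0.80, edgeR adjusted p = 0.892). Between the compounds it was -0.69 (interval -1.77 to 0.40, edgeR adjusted p = 0.517), and 0.19 without CDDO-Me 1. The gene overlaps PDCD6 on the same strand, a gene with 1081 to 2381 reads per library against 72 to 341 for AHRR. They share 244 exonic bases in GENCODE release 29, 3.18% of the exonic bases of AHRR, and reads there cannot be assigned to either gene.

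AHR itself (ENSG00000106546; chromosome 7, 17298622 to 17346152, plus strand) did not pass in any comparison, and its libraries spread widely within groups. It stood at 25.4, 15.9 and 17.9 CPM with DMSO. The CDDO-Me libraries had 27.5, 13.9 and 13.1 CPM and the PRL-295 libraries 18.8, 7.68 and 18.2 CPM. All group ranges overlapped, with PRL-295 2 the lowest library and CDDO-Me 1 the highest. The log2 fold change was -0.11 with CDDO-Me (interval -0.92 to 0.70, edgeR adjusted p = 0.886) and -0.38 with PRL-295 (interval -1.19 to 0.44, edgeR adjusted p = 0.764). AHR has the lowest GC content of the 7 genes, 38.2%. With the GC and length correction the values were -0.57 (edgeR adjusted p = 0.404) and -0.63 (edgeR adjusted p = 0.598), against -0.11 and -0.38 without it, and still without a call. With libraries also blocked by sample number they were -0.68 and -0.62 (edgeR unadjusted p = 0.0308 and 0.0453, adjusted p = 0.184 and 0.419). Between the compounds the uncorrected log2 difference was -0.27 (interval -1.08 to 0.55, edgeR adjusted p = 0.770). These small values turned with single libraries. With CDDO-Me, leaving out DMSO 1 gave 0.10, and leaving out CDDO-Me libraries 1, 2 and 3 in turn gave -0.55, 0.03 and 0.08. The value between the compounds was 0.17 without CDDO-Me 1 and 0.04 without PRL-295 2, and the PRL-295 value against DMSO was -0.07 without PRL-295 2. AHR overlaps AC019117.2 on the same strand over 46858 bases, a gene with 0 reads in every library. Exonic bases shared by this pair were not counted, and reads in any such bases could not be assigned to either gene.

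ARNT, the nuclear partner that the receptor shares with the hypoxia factors (ENSG00000143437; chromosome 1, 150809705 to 150876768, minus strand), did not pass in any comparison, although its groups did not overlap. Its levels were 29.8, 24.7 and 25.8 CPM with DMSO. The CDDO-Me libraries had 36.2, 35.2 and 33.4 CPM and the PRL-295 libraries 30.4, 33.0 and 31.9 CPM. Every compound library was above every DMSO library, and every PRL-295 library was below every CDDO-Me library. The log2 fold change was 0.38 with CDDO-Me (interval 0.07 to 0.69, unadjusted p = 0.0196, edgeR adjusted p = 0.112). With PRL-295 it was 0.28 (interval -0.03 to 0.58, edgeR adjusted p = 0.454). Between the compounds it was -0.11 (interval -0.42 to 0.20, edgeR adjusted p = 0.750). None of these passed the threshold under any alternative. Counting ARNT and TIPARP, 2 of the 6 members had groups without overlap in CPM for CDDO-Me against DMSO and 2 of 6 for PRL-295 against DMSO, all higher. Of all tested genes 31.9% did so with CDDO-Me (15.5% higher and 16.3% lower) and 28.8% with PRL-295 (12.2% higher and 16.6% lower). For PRL-295 against CDDO-Me it was 1 of 6, ARNT, which was lower, with 24.6% of all tested genes (13.2% higher and 11.4% lower). In either direction the members' shares are near the background. Against DMSO the share of members that were higher is above that of all tested genes, but it rests on 2 genes and was not tested.

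ARNT2, a close relative of ARNT best known from the nervous system (ENSG00000172379; chromosome 15, 80404350 to 80597937, plus strand), had the lowest counts. It stood at 1.61, 2.00 and 3.15 CPM with DMSO. The CDDO-Me libraries had 5.89, 1.99 and 0.813 CPM and the PRL-295 libraries 1.81, 2.22 and 1.83 CPM. Within CDDO-Me the libraries thus ran from below to above the DMSO range. The lowest library, CDDO-Me 3, held 19 reads, with an exact Poisson interval of 11.4 to 29.7. The log2 fold change was 0.37 with CDDO-Me (interval -1.01 to 1.74, edgeR adjusted p = 0.764), and -0.68 without CDDO-Me 1. With PRL-295 it was -0.18 (interval -1.57 to 1.20, edgeR adjusted p = 0.958), and 0.14 without DMSO 3. Between the compounds it was -0.55 (interval -1.93 to 0.84, edgeR adjusted p = 0.713), and 0.51 without CDDO-Me 1. The intervals are wide: 0.497 to 3.34 times the DMSO level with CDDO-Me and 0.338 to 2.30 times with PRL-295.

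**Figure D3:**
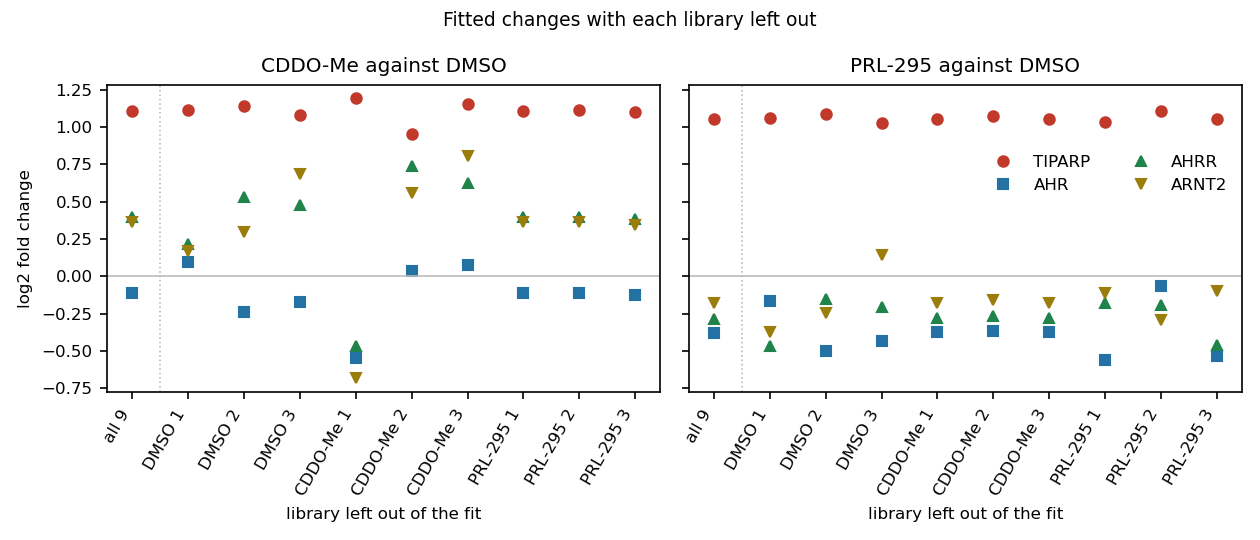
Log2 fold changes (vertical axis) of TIPARP, AHR, AHRR and ARNT2 against DMSO with all 9 libraries and with each library left out in turn (horizontal axis), for CDDO-Me on the left and PRL-295 on the right. TIPARP stays between 0.96 and 1.19 with CDDO-Me, while without CDDO-Me 1 AHRR goes from 0.40 to -0.47 and ARNT2 from 0.37 to -0.68.

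Levels were compared between genes per length, in the deposited FPKM (counts scaled to gene length and library total). With DMSO, TIPARP was the most abundant of the 7 at 7.53 ± 0.290 FPKM (SD, n = 3), above all other members without overlap. ARNT (4.11 ± 0.415), CYP1A1 (4.08 ± 0.411) and AHR (2.96 ± 0.751) followed, and each of these overlapped the next in the order. CYP1B1 was at 2.16 ± 0.334 FPKM and overlapped AHR. AHRR (0.556 ± 0.129) and ARNT2 (0.291 ± 0.103) were lowest and their libraries lay next to each other, from 0.408 upward and up to 0.407 FPKM. Among the 24094 genes with a mean above 0 in DMSO, TIPARP stood at the 79.2 percentile, CYP1A1 at 71.2 and ARNT2 at 37.4.

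The place of CYP1A1 in this order differed between groups. With CDDO-Me it stood at 1.37 ± 0.274 FPKM, below CYP1B1 (2.92 ± 0.550) and AHR (2.73 ± 1.22), without overlap with either. With PRL-295 it stood at 14.4 ± 2.61 FPKM, next to TIPARP at 15.3 ± 1.13, and these overlapped. By deposited FPKM, ARNT was more abundant than AHR in all 9 libraries. The AHR to ARNT ratio of FPKM was 0.629 to 0.832 in DMSO, 0.384 to 0.744 in CDDO-Me and 0.228 to 0.606 in PRL-295. Any reads that AHR lost to its overlap with AC019117.2 would be missing from this ratio. ARNT exceeded ARNT2 by 7.30 to 48.9 times, with both extremes in CDDO-Me libraries.

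**Figure D4:**
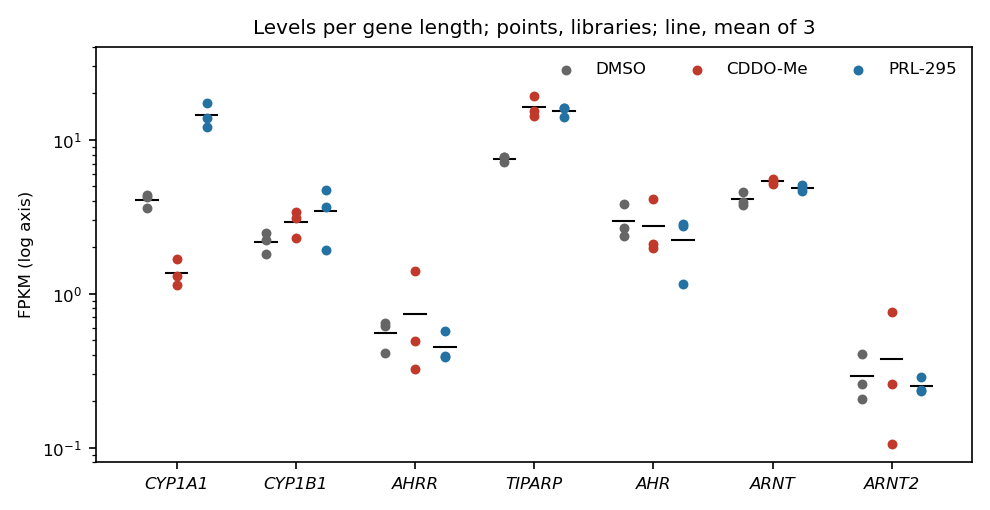
Deposited FPKM of the 7 genes on a log axis, with points for libraries, lines for means of 3 and colours for groups. CYP1A1 has a mean of 1.37 with CDDO-Me and 14.4 with PRL-295, TIPARP is at or above 7.20 in all libraries, and AHRR and ARNT2 are at most 1.39 in all.

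The genes whose pattern was most like that of CYP1A1 were taken by Pearson correlation of log2 CPM over the 9 libraries, among 13126 other tested genes averaging 1 CPM or more. The libraries come from 3 groups, so r largely reflects the order of the groups, and no test was made. The 10 highest were TLDC1 (r = 0.973), TMEM62 (0.970), RFWD3 (0.964), CALB2 (0.962), FBLIM1 (0.959), IL1B (0.943), ARTN (0.936), UPP1 (0.935), SOX7 (0.933) and FAH (0.930). All had a lower mean with CDDO-Me and a higher mean with PRL-295 than with DMSO, but the sizes differed. CALB2, which encodes the calcium-binding protein calretinin, went from 30.2 ± 2.32 CPM with DMSO to 11.9 ± 0.811 with CDDO-Me and 47.1 ± 8.03 with PRL-295 (SD, n = 3). UPP1, the uridine phosphorylase, went from 235 ± 3.75 to 102 ± 4.11 and 297 ± 25.9 CPM. IL1B, the cytokine interleukin 1 beta, went from 48.5 ± 3.49 to 22.2 ± 7.39 and 79.6 ± 6.02 CPM. TLDC1, the most alike by r, moved only from 162 ± 7.27 to 139 ± 3.66 and 177 ± 2.76 CPM.

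The 3 genes with the most opposite pattern were ARF6 (r = -0.969), a small GTPase of membrane traffic, the basal keratin KRT5 (-0.968), which is also one of the keratinocyte markers above, and the collagenase MMP13 (-0.962). MMP13 went from 4.27 ± 0.617 CPM with DMSO to 6.53 ± 0.372 with CDDO-Me and 1.69 ± 0.354 with PRL-295. The other members were not alike: r with CYP1A1 was 0.12 for CYP1B1, -0.00067 for TIPARP, -0.15 for ARNT2, -0.21 for ARNT, -0.33 for AHR and -0.36 for AHRR. On log2(FPKM + 1), 7 of the 10 genes were again among the 10 highest. By Spearman, whose 10th value was reached by 19 genes, 3 of the 10 were.

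**Figure D5:**
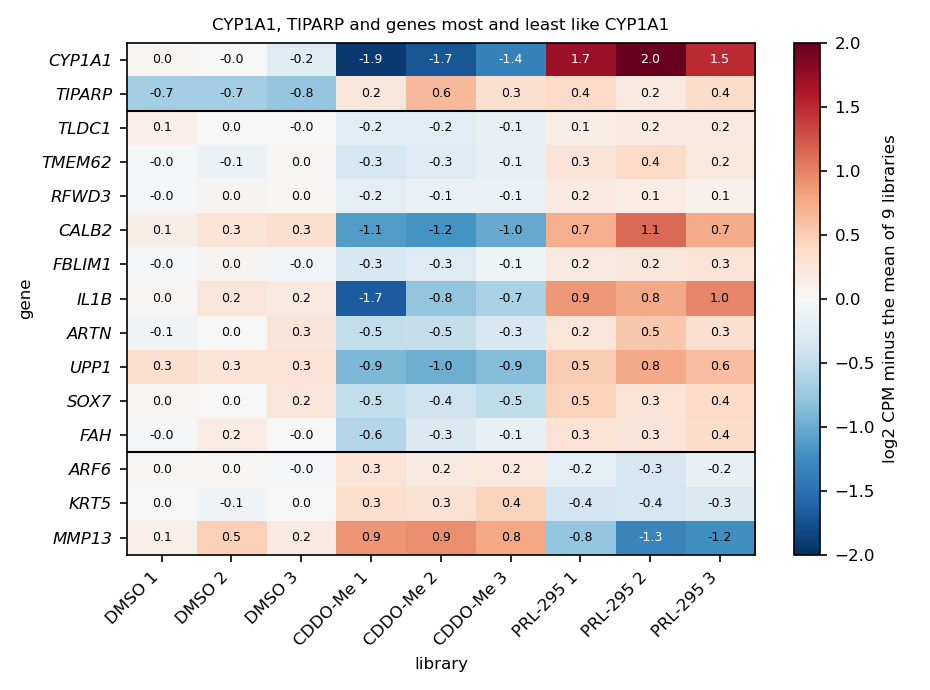
Log2 CPM minus the mean of the 9 libraries (colour and numbers) for CYP1A1, TIPARP, the 10 genes with the highest and the 3 with the lowest Pearson correlation with CYP1A1; columns are libraries. CYP1A1 and the 10 genes are low in the CDDO-Me columns and high in the PRL-295 columns, with CYP1A1, CALB2, UPP1 and IL1B the deepest, and the 3 genes at the bottom show the reverse.

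Other genes of the pathway were read from 8 lists with the same fit. The median log2 fold change of all tested genes was 0.01 with CDDO-Me and -0.01 with PRL-295. Of all tested genes edgeR called 4.65% higher and 4.57% lower with CDDO-Me. With PRL-295 it called 0.462% higher and 0.222% lower. The list counts below stand against these shares, and no list was tested as a set. Of 9 xenobiotic-metabolism genes known as receptor targets, 6 were tested. With CDDO-Me, 1 rose and 1 fell (median 0.66), and with PRL-295 1 rose (median 0.78). NQO1, a quinone reductase, was the gene that rose with both. It went from 373 ± 43.0 CPM with DMSO to 746 ± 181 with CDDO-Me (log2 0.99, edgeR adjusted p = 0.00771, and 0.0503 without DMSO 2) and 1072 ± 135 with PRL-295 (log2 1.55, edgeR adjusted p = 0.00219). CYP2S1, an epithelial P450, fell with CDDO-Me from 52.9 ± 10.2 to 31.3 ± 3.59 CPM (log2 -0.76, edgeR adjusted p = 0.0161). Its call ended without DMSO 1 (0.0825) or DMSO 2 (0.0662) and with the GC and length correction (0.109), and under 4 of the 20 alternatives in all. The glucuronosyltransferase UGT1A6 had log2 fold changes of 2.23 and 2.01 and the aldehyde dehydrogenase ALDH3A1 0.28 and 0.87, none past the edgeR threshold (both genes were named after their values were seen). UGT1A6 had 13, 3 and 42 reads in DMSO libraries 1 to 3, 151, 58 and 57 with CDDO-Me and 73, 77 and 51 with PRL-295. Its fold changes thus rest on few and uneven DMSO reads. For CDDO-Me, UGT1A6 had an edgeR adjusted p of 0.0883 and DESeq2 called 3 of the 6 genes, UGT1A6 among them. With PRL-295 DESeq2 called 1. CYP1A2, GSTA1 and GSTA2 had at most 1 read in any library and were not tested. NQO1, UGT1A6, ALDH3A1 and the GSTA genes are known as targets of NRF2 as well, so neither factor can be read from them alone.

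Among 9 other genes known as receptor targets, all tested, 1 rose and 2 fell with CDDO-Me (median -0.28) and none passed the edgeR test with PRL-295 (median 0.10), where 3 had an unadjusted p under 0.05, DESeq2 called 2 and limma none. SERPINB2, the plasminogen activator inhibitor 2, rose with CDDO-Me from 160 ± 23.2 to 292 ± 13.7 CPM (log2 0.86, edgeR adjusted p = 0.00332), a call that ended with the GC and length correction (0.0827). With PRL-295 SERPINB2 stood at 248 ± 24.5 CPM (log2 0.66, edgeR adjusted p = 0.0508). Between the compounds its edgeR adjusted p was 0.471. SLC7A5, a transporter of large neutral amino acids that carries kynurenine, fell with CDDO-Me (log2 -0.94, edgeR adjusted p = 0.00451), and was higher with PRL-295 than with CDDO-Me (log2 0.81, edgeR adjusted p = 0.025). The latter call ended without DMSO 2 (0.0519) or CDDO-Me 3 (0.101), and without any 1 of the PRL-295 libraries (0.0532, 0.0673 and 0.0916 for 1 to 3). In all, 8 of the 20 alternatives ended it. IL1B, which is also among the genes most like CYP1A1, fell with CDDO-Me (log2 -1.14, edgeR adjusted p = 0.0115, and 0.0574 without DMSO 2). It was higher with PRL-295 than with CDDO-Me (log2 1.88, edgeR adjusted p = 0.00261). PRL-295 against CDDO-Me called 2 of these 9 genes higher, where 0.905% of all tested genes were.

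In the list of receptor complex and chaperones, all 5 genes were tested. HSP90AA1, the inducible HSP90, rose with CDDO-Me from 1562 ± 73.5 to 3158 ± 1168 CPM (log2 1.01, edgeR adjusted p = 0.0188). That call ended without DMSO 1 (0.0835), DMSO 2 (0.0872) or DMSO 3 (0.0577). The HSP90AA1 value with PRL-295 was 0.66 (edgeR adjusted p = 0.230). None of the 5 passed with PRL-295 (median 0.08), where 2 had an unadjusted p under 0.05 and DESeq2 and limma called none. With CDDO-Me the median was 0.11. Of 8 coregulators, the coactivator NCOA3 rose with CDDO-Me (log2 0.65, edgeR adjusted p = 0.00779, and 0.0564 with the GC and length correction) with a list median of 0.18. None of the 8 passed with PRL-295 (median -0.12), none had an unadjusted p under 0.05, and DESeq2 and limma called none. Of 11 bHLH-PAS relatives 8 were tested (median 0.54 with CDDO-Me and 0.18 with PRL-295). HIF1A, the oxygen-regulated partner of ARNT, rose with CDDO-Me from 25.1 ± 0.324 to 71.4 ± 30.8 CPM (log2 1.4999, edgeR adjusted p = 0.0459). Its call ended without DMSO 1 (0.146), DMSO 2 (0.145), DMSO 3 (0.125), CDDO-Me 2 (0.138), CDDO-Me 3 (0.0861) or PRL-295 3 (0.0663), and under 11 of the 20 alternatives in all. The HIF1A value with PRL-295 was 1.11 (edgeR adjusted p = 0.275). ARNTL2, a circadian relative, rose with CDDO-Me too (log2 0.71, edgeR adjusted p = 0.0147), but not without DMSO 2 (0.0706) or DMSO 3 (0.0638) or with the GC and length correction (0.255). The ARNTL2 call was lost under 4 of the 20 alternatives. None of the 8 relatives passed with PRL-295, where 2 had an unadjusted p under 0.05 and DESeq2 and limma called none.

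Among 7 genes that make or consume tryptophan-derived ligands, 4 were tested (median 0.26 with CDDO-Me and 0.31 with PRL-295), and TDO2, IDO1 and IDO2 had at most 6 reads in any library. KYNU, which cleaves kynurenine, had 11, 0 and 8 reads in DMSO libraries 1 to 3, 113, 143 and 92 with CDDO-Me and 33, 27 and 63 with PRL-295. It rose with CDDO-Me (edgeR adjusted p = 0.0168), and the call ended without DMSO 3 (0.0665) or CDDO-Me 2 (0.0542), and under 3 of the 20 alternatives in all. No gene of this list passed with PRL-295, where 1 had an unadjusted p under 0.05, DESeq2 called 1 and limma none. Of 7 epidermal barrier genes linked to the receptor, 6 were tested. IVL, the envelope precursor involucrin, fell from 42.3 ± 15.2 CPM to 21.0 ± 3.92 with CDDO-Me and 15.5 ± 1.94 with PRL-295. The edgeR adjusted p was 0.0294 and 0.0312. With CDDO-Me it was 0.119 without DMSO 1 and 0.0580 without DMSO 3, and leaving out CDDO-Me 2 or 3 gave 0.0903 or 0.0772. With PRL-295 it was 0.126 without DMSO 1, 0.0706 without DMSO 3, 0.0638 without CDDO-Me 3, and 0.145, 0.105 and 0.1004 without PRL-295 1, 2 and 3. Across the 20 alternatives the IVL call was lost under 6 with CDDO-Me and under 8 with PRL-295. TGM1, the transglutaminase of the envelope, was lower in the PRL-295 group than in the CDDO-Me group (log2 -1.73, edgeR adjusted p = 0.00747, and 0.0560 without PRL-295 3), at 4.597 ± 1.046 against 15.6 ± 1.51 CPM. The DMSO level was 9.59 ± 2.42 CPM. The medians of the list were 0.00 with CDDO-Me and -0.73 with PRL-295.

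Among relatives of TIPARP the called changes were falls. Of 9 other mono-ADP-ribosyltransferase genes 8 were tested, and with CDDO-Me 2 fell and none rose (median -0.49). Of all tested genes 4.57% fell and 4.65% rose there, and the difference from that share was not tested. PARP10 fell from 146 ± 9.25 to 64.3 ± 14.4 CPM (log2 -1.18, edgeR adjusted p = 0.00226). PARP12 fell from 105 ± 2.07 to 70.0 ± 4.88 CPM (log2 -0.59, edgeR adjusted p = 0.0082). Both are also known as interferon-stimulated genes. With PRL-295 edgeR called none of the 8 (median -0.02), 2 had an unadjusted p under 0.05, DESeq2 called 1 and limma none. PARP10 stood at 79.8 ± 7.44 CPM with PRL-295 (edgeR adjusted p = 0.0511). Between the compounds edgeR called no gene of this list or of the complex, coregulator, bHLH-PAS, xenobiotic and ligand-source lists. An unadjusted p under 0.05 was found there for 3, 0, 3, 2, 2 and 0 genes of these lists, in that order, DESeq2 called 0, 0, 2, 1, 1 and 0, and limma called none.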

How the data were processed

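Gene expression was measured by paired-end RNA sequencing in 9 HaCaT libraries. Per the labels' protocols, the authors used STAR 2.5 for alignment to hg38 and HTSeq 0.6.1 for gene counts; annotation release and strand setting are not given in the sources used here. The deposited counts are raw whole numbers per gene. The authors' deposited FPKM equalled count over gene length and library total within 0.1% for 100% of values above 0. Groups and sample numbers came from the titles. Counts were tested with edgeR 4.0.16 (R 4.3.3; filterByExpr, TMM). The code was run on counts simulated from the model of that fit, without GC differences between libraries. That run cannot tell how the test behaves with the GC differences seen here. Alternatives were DESeq2 1.42.0, other scalings and filters, limma 3.58.1 on log2(FPKM + 1) or log2(FPKM + 0.1), a sample-number block, a GC and length correction, the compared groups alone and leaving out each library. The lowess correction used the GC content of the longest GENCODE 29 transcript and the deposited gene length. It was fitted to deviations from the mean of the 9 libraries, so it can also remove compound changes that follow GC content or length. Replicates of a group differed by more than counting noise. The members and gene lists were chosen with earlier results of these data known. Named list genes were up to 4 called in any comparison; every list named at least 1 called gene. Likeness genes were the 10 highest and 3 lowest correlations. Library totals of 23383800 to 32942156 reads put 3 counts at 0.0911 to 0.128 CPM.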

Additional observations from a re-analysis of the deposited data

Results flagged for a closer look

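CYP1A1 had opposite signs with the compounds, at -1.587 (CDDO-Me) and 1.846 (PRL-295) on the log2 scale, with every library of each group on its own side of DMSO. The difference was not tested, since the gene was chosen for it. Among the listed pathway genes, 3 differed between the compounds by the direct edgeR test, where 1.59% of all tested genes did. IL1B (log2 1.879) and SLC7A5 (0.8059), of the 9 other receptor targets, were higher with PRL-295 than with CDDO-Me. TGM1, of the 6 tested barrier genes, was lower (-1.734). The lists were chosen with earlier results of these data known, so the count is a description. The doses of the compounds differ.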

How the results depend on the processing

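Of the 6 members other than CYP1A1, the number called (1, 1 and 0) was the same under all 20 alternatives. The sign of CYP1A1 also held under all 20 in each comparison. CYP1A1 was chosen for its signs in these same libraries, so this is a description and no check of the pattern. With limma on log2(FPKM + 1), CYP1A1 was -1.11 for CDDO-Me against DMSO and 2.69 for PRL-295 against CDDO-Me. Signs turned for changes that were never called. These were AHRR without CDDO-Me 1 (-0.47 for CDDO-Me against DMSO, 0.19 between compounds; ranges -0.47 to 0.74 and -1.004 to 0.19) and ARNT2 without CDDO-Me 1 (-0.68 and 0.51; ranges -0.68 to 0.80 and -0.98 to 0.51) or without DMSO 3 (0.14 for PRL-295 against DMSO; range -0.38 to 0.14). AHR turned for CDDO-Me against DMSO without DMSO 1 (0.10), CDDO-Me 2 (0.03) or CDDO-Me 3 (0.08), with a leave-out range of -0.55 to 0.10 and -0.68 with the replicate block and GC correction together. Between compounds it turned without CDDO-Me 1 (0.17) or PRL-295 2 (0.04; range -0.45 to 0.17), and at 0.061 with that same block and correction. TIPARP (range -0.13 to 0.12, without CDDO-Me 2) and CYP1B1 (range -0.023 to 0.54, without PRL-295 1) turned between compounds.

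Counts over all genes moved far more. From 1497 (CDDO-Me against DMSO), 111 (PRL-295 against DMSO) and 258 (between compounds), DESeq2 gave 2522, 528 and 901, no filter 2509, 825 and 1250, and the replicate block 864, 60 and 156. The GC and length correction gave 243 and 545 for the last comparisons (207 and 535 with the block), and the 6 compared libraries alone 650 and 45. Leaving out a library gave 400 to 2803, 33 to 589 and 60 to 285. The cause was not tested. Whether same-numbered libraries were paired is not given in the sources used here. Their deviations from group means correlated at -0.213 to 0.108, and those of other library pairs at -0.128 to 0.270. The GC differences between libraries also enter these values, so they cannot decide it. The block changed no call of a member. Among listed genes, the block alone ended the calls of HSP90AA1 (adjusted p = 0.0502) and HIF1A (0.0945). The likeness list kept 3 of 10 by Spearman, and TNGCGTG in place of GCGTG left 1 of 4 genes. The lowest library held 19 reads for ARNT2 and 72 for AHRR, the fewest of the members. The part of depth in their spread was not tested.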
